A study of Mus musculus with 16 samples.

Results

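The comparison set positively selected germinal center (GC) B cells of the CD69hi gate, named cMyc+prePB, against those of the CD23int gate, named cMyc+lateCD23int. It took 8 of the 16 RNA sequencing libraries of the series, 4 per group, and the other 8 libraries, 4 of cMyc+early and 4 of cMyc+lateCD23lo cells, entered the same fit and are given as levels. Libraries were chosen by the cell type in their labels, which no expression value decided. All cells came from the spleens of cMyc gfp/gfp mice on the C57BL/6J background, in which the endogenous locus makes a fusion of GFP and cMyc, so that every library, in every group, carried the tagged allele. Male and female mice of 6 to 15 weeks had received sheep red blood cells (SRBC) into the peritoneum, and spleens were taken on day 7. B cells were enriched by removal of CD43+ cells and sorted as B220+ CD38low CD95+ cMycGFP+. From these, cMyc+prePB cells were CD69hi. The cMyc+lateCD23int cells were light zone (LZ) cells with intermediate CD23 and CD21/35, taken after CD69hi cells and CXCR4hi CD86lo dark zone (DZ) cells had been gated out. The cMyc+early cells were CD23hi CD21/35hi and the cMyc+lateCD23lo cells CD23lo CD21/35lo. The labels do not say how many mice went into a library, nor whether libraries of a group came from separate mice. Thus p-values measure only the spread between these libraries, part of which may be technical. In cMyc+prePB libraries 1 to 4, Xist was at 1649, 114, 899 and 671 normalized reads, and every library held both Xist and Y-linked reads.

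In GCs, B cells mutate their antibody genes while dividing in the DZ and are tested for antigen binding and T cell help in the LZ. Cells that receive enough help switch on cMyc for a short time. A selected cell may return to the DZ for further division, leave as a memory B cell or begin the plasma cell program, in which factors such as IRF4, BLIMP1 (Prdm1) and XBP1 replace the B cell program held by PAX5, BACH2 and BCL6. BATF, an AP-1 family factor that pairs with IRF4, is needed for class switching. The comparison asks how the RNA of selected cells assigned to the plasmablast precursor gate differed from that of selected cells of the CD23int gate.

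Of 12505 genes tested, 18 (0.144%) passed an adjusted p of 0.05 in a fit without the library number as a term. The 8 genes higher in cMyc+prePB (0.064%) were Igha, Ido1, Ccnd2, Pkib, Stat5a, Batf, Plscr1 and Gstt2. The 10 genes lower (0.08%) were Gramd1c, Ppfia4, Lifr, Il5ra, Hbb-bh1, Cd36, Nfkbid, Cr2, Prkd2 and Endou. They thus held the IgA constant gene, the G1 cyclin D2, BATF and STAT5A on one side, and receptors for IL-5, LIF, complement and lipids on the other. For each of the 18 genes the 4 libraries of one group all lay above the 4 of the other, a separation that 2.46% of all tested genes showed with cMyc+prePB above and 2.75% with cMyc+prePB below, 5.21% in all. An unadjusted p under 0.05 was reached by 427 genes with higher values in cMyc+prePB (3.41%) and 670 with lower values (5.36%), 8.77% in all. With the library number as a term of the fit, 121 genes passed (0.968%), all 18 included. The median log2 fold change of all tested genes was -0.021. Fold changes are differences of mean log2(normalized read count + 1), cMyc+prePB minus cMyc+lateCD23int. For low genes this scale can understate a change, or exceed the ratio of means where some libraries are near 0. Gramd1c, with a log2 fold change of -5.45, was 14.6-fold lower by its means.

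**Figure D1:**
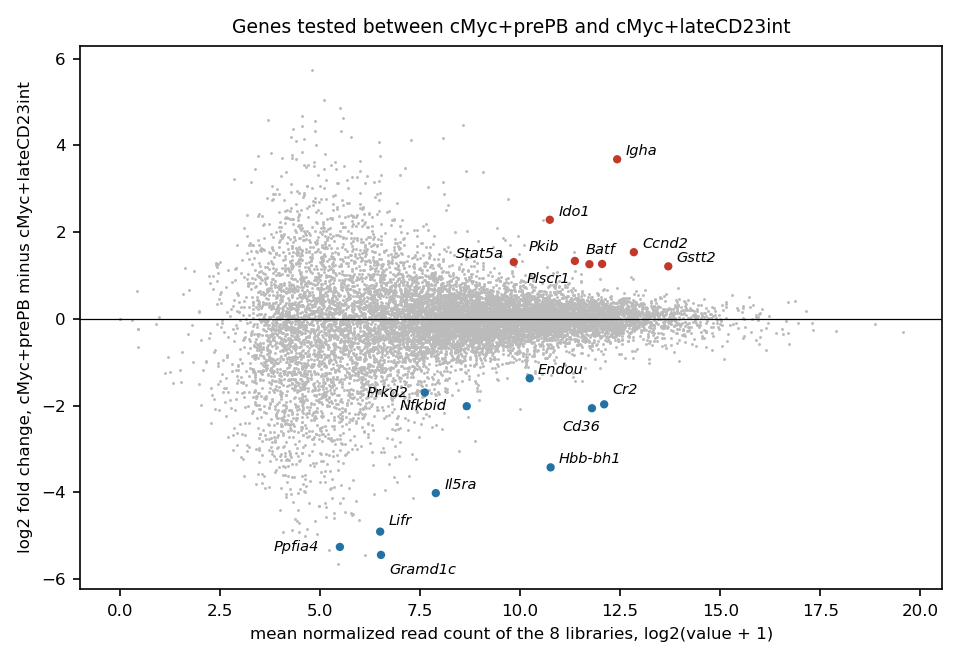
Log2 fold change, cMyc+prePB minus cMyc+lateCD23int, of each of the 12505 tested genes (vertical axis) against its mean normalized read count in the 8 libraries as log2(value + 1) (horizontal axis). Red points are the 8 genes past the threshold with higher values in cMyc+prePB and blue points the 10 with lower values. Gray points are all other genes, whose spread is widest at low counts.

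The promoters of the genes that passed were read for letters recognized by cMyc and Max (the E-box CACGTG), AP-1 factors (TGANTCA), interferon response factors (GAAA, any 2 bases, GAAA) and NF-kB (its consensus), on both strands, in the 250 bases before each RefSeq start. CACGTG and TGANTCA read the same on both strands. RefSeq (build GRCm38.p6) gave a window for 12 of the 18 genes. The following 4 windows are shown because they belong to the genes with the largest fold changes that held a match, and the capitals mark that match. The first Gramd1c window is chr16:44016437-44016686, the second chr16:44027946-44028195, the Ppfia4 window chr1:134344717-134344966 and the Il5ra window chr6:106749038-106749287, all on the minus strand.
Gramd1c, first window: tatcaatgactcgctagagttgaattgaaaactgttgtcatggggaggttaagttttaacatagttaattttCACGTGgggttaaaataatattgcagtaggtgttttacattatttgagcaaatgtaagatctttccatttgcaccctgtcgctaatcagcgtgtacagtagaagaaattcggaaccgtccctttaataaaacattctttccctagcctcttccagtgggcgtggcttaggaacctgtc
Gramd1c, second window: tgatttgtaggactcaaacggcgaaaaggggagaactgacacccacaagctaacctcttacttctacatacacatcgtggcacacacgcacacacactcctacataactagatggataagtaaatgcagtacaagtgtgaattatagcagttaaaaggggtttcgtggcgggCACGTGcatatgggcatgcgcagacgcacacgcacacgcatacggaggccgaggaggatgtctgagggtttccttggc
Ppfia4: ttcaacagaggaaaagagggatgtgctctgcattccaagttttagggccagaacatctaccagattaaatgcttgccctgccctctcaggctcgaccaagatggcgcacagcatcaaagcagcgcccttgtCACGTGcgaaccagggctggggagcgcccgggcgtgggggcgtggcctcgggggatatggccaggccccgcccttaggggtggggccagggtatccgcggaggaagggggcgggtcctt
Il5ra: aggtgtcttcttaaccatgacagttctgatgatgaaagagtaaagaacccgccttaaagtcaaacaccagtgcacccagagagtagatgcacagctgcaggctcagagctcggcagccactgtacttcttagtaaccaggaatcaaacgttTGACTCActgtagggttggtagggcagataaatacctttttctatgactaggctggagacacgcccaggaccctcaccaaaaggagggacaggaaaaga
Both Gramd1c windows lie inside the GENCODE gene but in none of its exons, at starts of shorter transcripts, and the other 2 lie outside any GENCODE gene. The match began 178 and 78 bases before the start in the Gramd1c windows, 119 bases before it in Ppfia4 and 99 in Il5ra. Among the 12 genes with a window, CACGTG was found for 2, against 10.2% of all tested genes with one and 6.02% of all RefSeq windows of that length. TGANTCA was found for 1 (Il5ra), against 4.89% of tested genes and 6.75% of all windows. The NF-kB consensus was found for 2, Nfkbid and Stat5a, against 10% and 7.25%. The paired GAAA motif was found for 0, against 3.41% and 2.98%. A match is a string of letters, and which of a gene's starts these cells used was not measured.

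Igha (chr12:113254830-113260236), the constant region gene of the IgA heavy chain, rose most among the 8 higher genes. Values here and below are normalized read counts in the order of library numbers 1 to 4. Igha stood at 21278, 2686, 10770 and 6557 in cMyc+prePB and at 693, 527, 355 and 1148 in cMyc+lateCD23int. The lowest cMyc+prePB library was thus above the highest cMyc+lateCD23int library, with a wide spread inside cMyc+prePB. Means were 10323 ± 8015 and 681 ± 341 (SD, n = 4 each), and the log2 fold change was 3.68 (SE 0.47, adjusted p = 0.00357). Jchain, whose product joins IgA and IgM into polymers, stood at 104886, 31885, 43640 and 41362 against 55167, 38337, 26598 and 47076, and its log2 fold change of 0.30 did not pass (adjusted p = 0.841). Library 1 was highest and library 2 lowest in cMyc+prePB for both genes. Plasma cells that have already formed carry Igha and Jchain RNA at high levels, and their markers are given beside the plasma cell genes below. Constant genes of one family share sequence, so reads could have been divided among them in ways that these counts do not show.

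Ido1 (chr8:24584136-24597009) encodes the enzyme that opens the kynurenine route of tryptophan breakdown. It stood at 2457, 2531, 2391 and 3990 in cMyc+prePB and at 439, 507, 584 and 806 in cMyc+lateCD23int. The groups were far apart, 2842 ± 767 against 584 ± 159 (SD, n = 4 each), and Ido1 rose by 2.28 on the log2 scale (SE 0.32, adjusted p = 0.00629). Plscr1 (chr9:92249750-92272278), an interferon-inducible phospholipid scramblase, stood at 3283, 4744, 5249 and 6027 against 1641, 2033, 2024 and 2222. It rose by 1.26 (SE 0.23, adjusted p = 0.0273), and the groups did not overlap. Its call held in 1 of the 8 fits without 1 library (adjusted p up to 0.132). Of 25 tested members of a list of interferon-stimulated genes, 0 passed and 11 had a log2 fold change above 0, as did 48.2% of all tested genes, with a median of -0.11. Gbp2, an interferon-inducible GTPase in that list, was at 1005 ± 779 against 266 ± 41.7 (log2 fold change 1.66, adjusted p = 0.243).

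Ccnd2 (chr6:127125162-127152193) encodes cyclin D2, which with CDK4 and CDK6 drives cells out of G1. It stood at 6412, 13640, 12710 and 11288 in cMyc+prePB and at 3158, 3761, 4339 and 3436 in cMyc+lateCD23int. Ccnd2 rose by 1.54 (SE 0.23, adjusted p = 0.00725), from 3673 ± 508 to 11012 ± 3216 (SD, n = 4 each), and cMyc+prePB library 1 lay closest to the other group. Ccnd3, the D-type cyclin on which dividing GC B cells rely, was at 867 ± 201 against 983 ± 728 (log2 fold change 0.09, adjusted p = 0.985). The sign of the Ccnd3 difference turned when single libraries were left out and in edgeR and DESeq2, so no direction is given for it. Of 23 tested G1 cyclins, CDKs and their inhibitors, Ccnd2 was the 1 gene that passed, 9 were above 0 and the median was -0.12. Of 45 genes of DNA replication, 0 passed and the median was 0.026. Of 50 genes of mitosis, 0 passed, 12 were above 0, against 48.2% of all tested genes, and the median was -0.15. Mki67, a marker of dividing cells, was at 11376 ± 2264 against 13006 ± 1406 (log2 fold change -0.21, adjusted p = 0.765).

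Batf (chr12:85686669-85709087) stood at 4969, 5517, 6524 and 6937 in cMyc+prePB and at 2501, 2308, 2107 and 3052 in cMyc+lateCD23int. The spread inside each group was small beside the gap between them, 5987 ± 904 against 2492 ± 407 (SD, n = 4 each), and Batf rose by 1.27 (SE 0.18, adjusted p = 0.00666). Stat5a (chr11:100859351-100885169), which carries signals of cytokine receptors such as that for IL-2 to the nucleus, stood at 1461, 971, 1313 and 1489 against 472, 467, 677 and 492. Stat5a rose by 1.31 (SE 0.25, adjusted p = 0.0433), with no overlap. Its call held in 1 of 8 fits that each left out 1 of the 8 libraries, with an adjusted p of up to 0.168 in the others.

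Around these factors, 16 tested members of a list of BATF, AP-1 and IRF factors had a median of 0.045, and Batf was the 1 member that passed. Irf4, the partner of BATF, was at 729 ± 225 against 694 ± 257 (log2 fold change 0.10, adjusted p = 0.974), with a sign that turned when single libraries were left out. Of 25 JAK, STAT and SOCS genes, Stat5a was the 1 that passed, and the median was 0.039. Socs2, an inhibitor induced by STAT5, was 130, 270, 351 and 242 in cMyc+prePB against 2.99, 40.7, 34.3 and 31.6 in cMyc+lateCD23int. These groups were apart too, but the spread on the log2 scale was large and Socs2 did not pass (log2 fold change 3.49, SE 1.12, adjusted p = 0.338). Jak2 was at 705 ± 386 against 1202 ± 95.4 (log2 fold change -0.95, adjusted p = 0.528). Among genes for cytokine receptors, Il2ra, the high-affinity chain of the IL-2 receptor, was at 512 ± 176 against 156 ± 89.9 (log2 fold change 2.00, adjusted p = 0.246) and Il9r at 355 ± 136 against 102 ± 62.1 (log2 fold change 1.92, adjusted p = 0.224). Neither passed, although their groups did not overlap.

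Pkib (chr10:57631981-57741112) encodes an inhibitor of protein kinase A. It stood at 3695, 3728, 3379 and 4146 in cMyc+prePB and at 2430, 1500, 1165 and 1123 in cMyc+lateCD23int. The cMyc+prePB libraries were close together, and Pkib rose by 1.33 (SE 0.20, adjusted p = 0.00725). Gstt2 (chr10:75831114-75837424), a glutathione S-transferase of the theta class, stood at 16165, 20955, 17283 and 19723 against 6226, 9450, 6829 and 10032. Gstt2 rose by 1.21 (SE 0.21, adjusted p = 0.0163), its groups were apart, and the call held in 3 of the 8 fits without 1 library (adjusted p up to 0.0873). Gstt1, Gstt3 and Gstt4 are related in sequence, so a division of reads among the theta genes is uncertain.

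**Figure D2:**
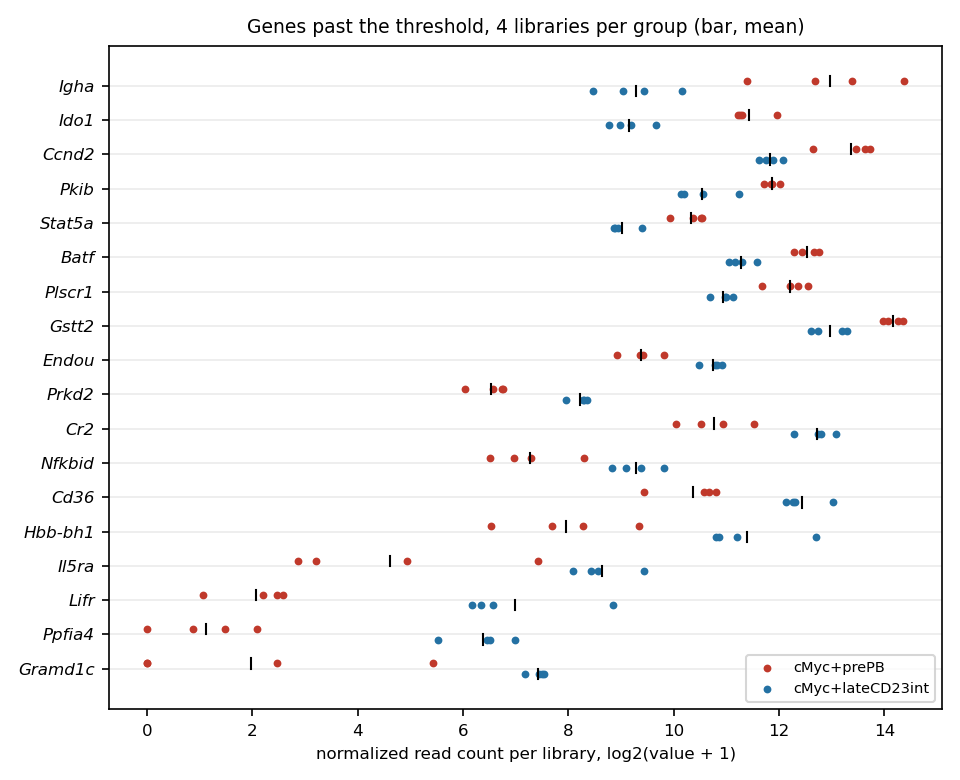
Normalized read count as log2(value + 1) (horizontal axis) of the 18 genes past the threshold, ordered by fold change, in the 4 cMyc+prePB libraries (red) and the 4 cMyc+lateCD23int libraries (blue). Points are libraries and black bars the means of the log2 values. Red and blue points do not overlap for any of the 18 genes, and red points spread most for Il5ra, Gramd1c, Hbb-bh1 and Igha.

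The genes lower in cMyc+prePB included some that were almost not read there. Gramd1c (chr16:43980350-44063345), which encodes a sterol transfer protein of membrane contact sites, stood at 0, 42.2, 4.51 and 0 in cMyc+prePB and at 180, 174, 144 and 185 in cMyc+lateCD23int. It fell by 5.45 on the log2 scale (SE 0.89, adjusted p = 0.0134). Ppfia4 (chr1:134296783-134332928), a gene for a scaffold protein of the liprin family, stood at 3.22, 0.827, 0 and 1.80 against 90.6, 44.8, 127 and 86.4. Each cMyc+prePB library held at most 3 reads of Ppfia4. Set against that floor of 3 reads per library, which covers counting error only, the cMyc+prePB mean was at least 31.3-fold lower (adjusted p = 0.0144). The Gramd1c call did not hold in edgeR (adjusted p = 0.215), and DESeq2 gave it no adjusted p. The Ppfia4 call held in DESeq2 but not in edgeR (adjusted p = 0.0521).

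Lifr (chr15:7090614-7197489), the receptor chain for leukemia inhibitory factor, stood at 1.07, 4.96, 4.51 and 3.61 in cMyc+prePB and at 461, 71.2, 93.4 and 79.9 in cMyc+lateCD23int. The low values were close together and the high ones were set apart by library 1. Lifr fell by 4.91 (SE 0.82, adjusted p = 0.0144), and without cMyc+lateCD23int library 1 the adjusted p was 0.0873. Il5ra (chr6:106710357-106749037), the ligand-binding chain of the IL-5 receptor, stood at 170, 8.27, 29.8 and 6.31 against 692, 377, 344 and 272. It fell by 4.02 (SE 0.77, adjusted p = 0.0419), with the groups apart and cMyc+prePB library 1 highest in its group. Its call held in 1 of the 8 fits without 1 library (adjusted p up to 0.189). In the list of 26 cytokines and cytokine receptors Il5ra was the 1 gene that passed, 10 were above 0 and the median was -0.18.

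Cr2 (chr1:195136811-195176716) encodes CD21 and CD35, the complement receptors whose surface level was part of the gate. Cr2 stood at 2939, 1057, 1472 and 1970 in cMyc+prePB and at 8658, 6878, 7164 and 5012 in cMyc+lateCD23int. It fell by 1.97 (SE 0.34, adjusted p = 0.0174). CD21/35 chose the cMyc+lateCD23int cells but not the cMyc+prePB cells, so this difference cannot be told apart from the sort. In the CD21/35hi cMyc+early cells Cr2 was at 6638 ± 1826. Of the other gate markers, none of those named here passed at the RNA level. Cd69, the marker that defined cMyc+prePB, stood at 5346, 2862, 3165 and 2439 against 6126, 4039, 2761 and 2122. These ranges overlapped (log2 fold change -0.074, adjusted p = 0.981), and the same held for Fcer2a (CD23) at 7457 ± 3204 against 8594 ± 4492 (log2 fold change -0.19, adjusted p = 0.940). The sign of both turned when single libraries were left out. Myc, tagged with GFP in all groups, stood at 2300, 4165, 4411 and 4417 against 857, 1801, 3817 and 1839 (log2 fold change 1.03, adjusted p = 0.448). Cxcr4 was at 157 ± 61.4 against 109 ± 28.9 (log2 fold change 0.49, adjusted p = 0.805) and Cd86 at 7818 ± 1893 against 12160 ± 4615 (log2 fold change -0.60, adjusted p = 0.561).

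Nfkbid (chr7:30421732-30428746) encodes a nuclear inhibitor protein of NF-kB. It stood at 313, 90.1, 124 and 156 in cMyc+prePB and at 451, 665, 904 and 547 in cMyc+lateCD23int. Nfkbid fell by 2.02 (SE 0.36, adjusted p = 0.0249), and its call held in 1 of the 8 fits without 1 library (adjusted p up to 0.114). Of 29 NF-kB subunits, inhibitors and targets, 2 passed, Nfkbid with the lower value and Stat5a with the higher one, 20 were above 0 and the median was 0.070. Rel, the NF-kB subunit that B cells induce on activation, was at 1548 ± 509 against 3578 ± 821 (log2 fold change -1.25, adjusted p = 0.200), with the groups apart. Nfkbia was at 12198 ± 1439 against 9010 ± 1044 (log2 fold change 0.44, adjusted p = 0.471) and Ebi3, a subunit of IL-27 and IL-35, at 1665 ± 332 against 897 ± 147 (log2 fold change 0.88, adjusted p = 0.191). Ccl22, a chemokine that attracts CCR4+ T cells, stood at 494, 761, 1086 and 1601 against 117, 44.8, 61.2 and 160. The Ccl22 groups were well apart, and the adjusted p was 0.0699 (log2 fold change 3.39).

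Prkd2 (chr7:16842902-16870464), a kinase activated by diacylglycerol, stood at 64.5, 93.4, 107 and 106 in cMyc+prePB and at 309, 316, 248 and 325 in cMyc+lateCD23int. Prkd2 fell by 1.70 (SE 0.32, adjusted p = 0.0359), but its call held in 0 of the 8 fits without 1 library (adjusted p up to 0.132). Endou (chr15:97711015-97731339), a gene for an endoribonuclease, stood at 906, 658, 679 and 487 against 1942, 1818, 1765 and 1423. Endou fell by 1.37 (SE 0.21, adjusted p = 0.00748), with a narrow spread in both groups.

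Cd36 (chr5:17781690-17888801), a scavenger receptor that takes up fatty acids, stood at 1795, 688, 1522 and 1628 in cMyc+prePB and at 8290, 5086, 4472 and 4953 in cMyc+lateCD23int. It fell by 2.06 (SE 0.31, adjusted p = 0.00725). Hbb-bh1 (chr7:103841637-103843164), a beta-like globin gene of the embryo, stood at 650, 91.8, 310 and 206 against 6654, 1780, 1854 and 2356. It fell by 3.43 (SE 0.60, adjusted p = 0.0174), the groups did not overlap, and the call held in 3 of the 8 fits without 1 library (adjusted p up to 0.0873). Globin genes are near-identical in parts, so their reads may be shared. The summed level of 8 erythroid marker genes, which do not include Hbb-bh1, ran from 344 to 3592 in cMyc+prePB and from 992 to 5249 in cMyc+lateCD23int, with both highest values in library 4. Hbb-bh1 was highest in library 1 of each group. Of the 8 marker genes, Hbb-bt was highest in library 1 of cMyc+lateCD23int, at 1367, and in library 4 of cMyc+prePB, at 357. Alas2, a marker of erythroid precursors, was at 0 in all 8 libraries. The summed level of 5 platelet markers, cells that carry CD36, ran from 7.21 to 105 and from 76.8 to 291. Their part in the Cd36 and Hbb-bh1 differences was not tested. In bulk libraries fewer cells of a type and less RNA per cell cannot be told apart.

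Across the 4 subpopulations, cMyc+prePB had the highest mean of the 8 higher genes and the lowest mean of the 10 lower genes, as a description of genes chosen through cMyc+prePB. For 7 of the 8, all but Ccnd2, each cMyc+prePB library was above each of the other 12 libraries. For 6 of the 10 each cMyc+prePB library was below all 12. Those 12 include the cMyc+lateCD23int libraries through which the genes were chosen. How many of all tested genes were apart from all 12 was not counted, so these counts have no background. Ccnd2 was at 6128 ± 1242 in cMyc+early and 2433 ± 608 in cMyc+lateCD23lo, Ido1 at 1117 ± 383 and 444 ± 184, and Batf at 3268 ± 815 and 1931 ± 195 (SD, n = 4 each). Endou at 862 ± 102 and Nfkbid at 319 ± 65.8 in cMyc+early overlapped cMyc+prePB, while both were near the cMyc+lateCD23int level in cMyc+lateCD23lo, at 1727 ± 375 and 648 ± 189. Lifr was at 117 ± 80.3 in cMyc+early and at 11.5 ± 4.96 in cMyc+lateCD23lo. Against the same cMyc+lateCD23int libraries, 0 of the 18 genes passed in cMyc+early (lowest adjusted p = 0.545, Endou) and 0 in cMyc+lateCD23lo (lowest adjusted p = 0.473, Lifr). At an unadjusted p under 0.05 this was 6 and 3 of the 18, against 3.71% and 6.28% of all tested genes, and these contrasts share the cMyc+lateCD23int libraries with the main one.

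**Figure D3:**
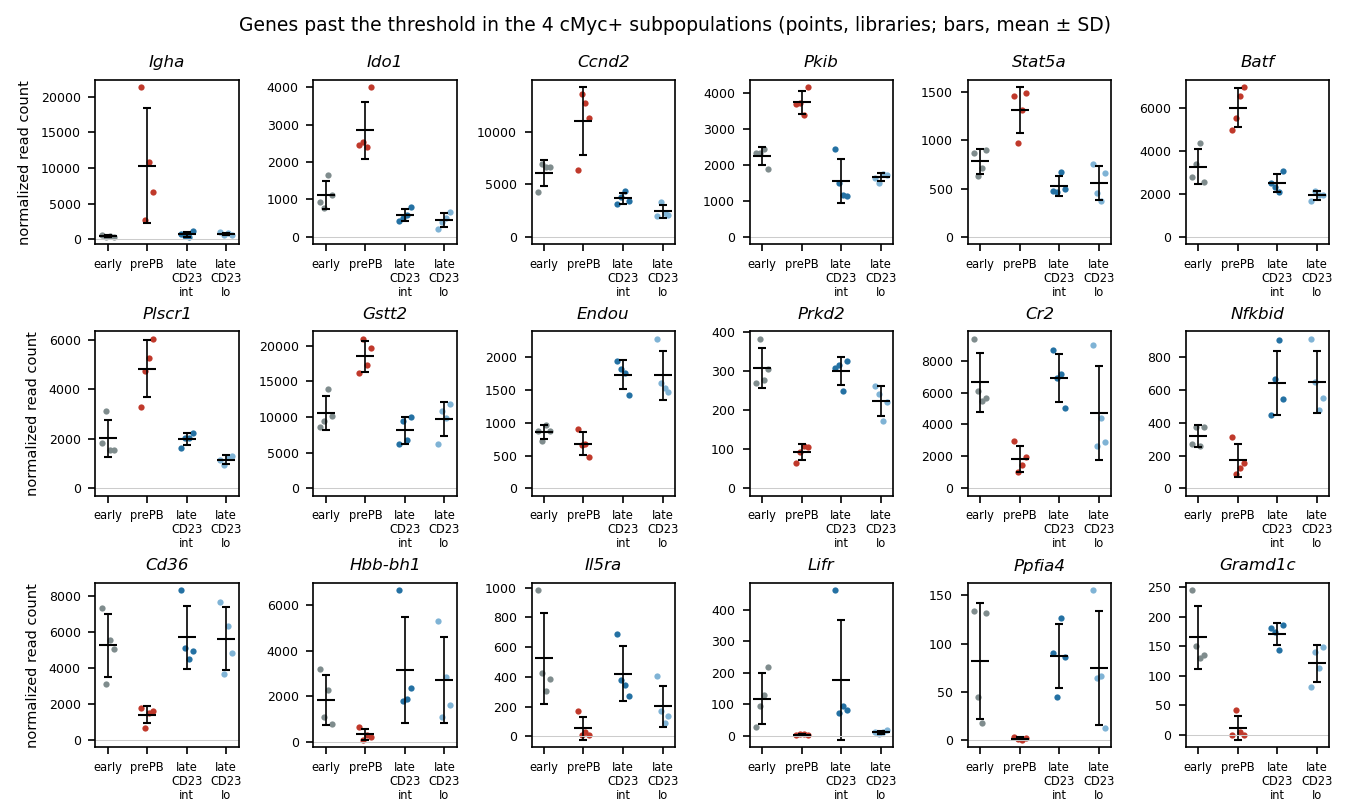
Normalized read count (vertical axes, linear) of the 18 genes in the 4 libraries of each of 4 subpopulations (horizontal axes, cMyc+early, cMyc+prePB, cMyc+lateCD23int and cMyc+lateCD23lo). Points are libraries and black bars the mean ± SD. Red cMyc+prePB points are the highest group in the 8 higher genes and the lowest in the 10 lower genes.

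Of the genes that define plasma cells, few separated the groups. In 15 tested transcription factors of that program Batf was the 1 that passed, 10 were above 0 and the median was 0.13. Prdm1 stood at 6.45, 119, 9.02 and 6.31 in cMyc+prePB and at 98.5, 130, 36.3 and 57.6 in cMyc+lateCD23int. In 3 of the 4 cMyc+prePB libraries Prdm1 was thus below every cMyc+lateCD23int library (log2 fold change -2.19, SE 1.06, adjusted p = 0.581). Xbp1 was at 4820 ± 877 against 3707 ± 208, with the groups apart (log2 fold change 0.36, adjusted p = 0.499). Sdc1 (CD138), a defining surface marker, was at 0 in 2 cMyc+prePB libraries and 3 cMyc+lateCD23int libraries and reached 108 and 53.0 in cMyc+prePB library 2 and cMyc+lateCD23int library 4. The summed level of 9 plasma cell markers ran from 52708 to 128935 in cMyc+prePB and from 44447 to 77381 in cMyc+lateCD23int. It was highest in cMyc+prePB library 1, which also had the most Igha, and most of it there was Jchain, at 104886. In that library Prdm1 was at 6.45, Sdc1 at 2.15 and Tnfrsf17 at 0, while Xbp1, Slamf7 and Ly6c2 were the highest of their group. The part of formed plasma cells in the Igha difference was not tested.

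Of 31 genes of the plasma cell surface and of secretion, 0 passed, 25 were above 0 and the median was 0.32. An unadjusted p under 0.05 with the higher value in cMyc+prePB was reached by 6. Over all tested genes, 48.2% were above 0 and 3.41% had such a p. Among them Creld2, an endoplasmic reticulum chaperone cofactor, was at 3832 ± 908 against 2073 ± 247 (log2 fold change 0.87, adjusted p = 0.0935), and Derl3, a factor of protein degradation from that organelle, at 924 ± 278 against 476 ± 117 (log2 fold change 0.93, adjusted p = 0.366).

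Of 45 genes of the cMyc network and its targets, 0 passed and 40 were above 0, against 48.2% of all tested genes. In 13 an unadjusted p under 0.05 came with the higher value in cMyc+prePB, against 3.41% of all tested genes. The median of the list was 0.39. With the library number as a term 4 passed, with higher values in cMyc+prePB, against 0.296% of all tested genes. The nucleolar genes Ncl at 47292 ± 3626 against 32435 ± 3420 (log2 fold change 0.55, adjusted p = 0.240) and Nop56 at 17422 ± 2327 against 12805 ± 1298 (log2 fold change 0.44, adjusted p = 0.286) had higher values in cMyc+prePB within all 4 library numbers, as 9.8% of all tested genes had. Srm, which makes spermidine, was at 3261 ± 940 against 1731 ± 675 (log2 fold change 0.95, adjusted p = 0.454) and Pa2g4 at 9504 ± 1988 against 6818 ± 1073 (log2 fold change 0.47, adjusted p = 0.4996). Tfap4, a cMyc target that prolongs cMyc-driven division, was at 178 ± 128 against 116 ± 92.3 (log2 fold change 0.62, adjusted p = 0.918). Of 19 glycolysis genes, 0 passed, 16 were above 0 and the median was 0.31, with Hk2 at 1197 ± 251 against 600 ± 73.9 (log2 fold change 0.98, adjusted p = 0.240). Of 29 genes of cholesterol and fatty acid synthesis, 0 passed, 6 were above 0 and the median was -0.27, with Hmgcs1, an early enzyme of the sterol route, at 3097 ± 413 against 5485 ± 893 (log2 fold change -0.82, adjusted p = 0.0676).

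Genes of the B cell program stood on the other side of 0. The summed level of 9 GC B cell markers, some of them members of the lists below, ran from 39404 to 55046 in cMyc+prePB and from 54152 to 76029 in cMyc+lateCD23int, and its part in these lists was not tested. Of 30 GC and B cell identity factors, 0 passed, 25 were below 0 and the median was -0.33. Of all tested genes 48.2% were above 0. An unadjusted p under 0.05 with the lower value in cMyc+prePB was reached by 10 factors, against 5.36% of all tested genes. With the library number as a term 7 passed, with lower values in cMyc+prePB, against 0.672% of all tested genes. Id3, an inhibitor of E proteins, stood at 1672, 1360, 1679 and 1079 in cMyc+prePB and at 4921, 3624, 3219 and 2908 in cMyc+lateCD23int. The groups were clearly apart, and the adjusted p was 0.0573 (log2 fold change -1.33, SE 0.27). Bach2, which holds back the plasma cell program, was at 1025 ± 72.0 against 1724 ± 311 (log2 fold change -0.73, adjusted p = 0.457), also apart. Bcl6 was at 1679 ± 418 against 2385 ± 432 (log2 fold change -0.52, adjusted p = 0.541) and Pax5 at 2413 ± 460 against 2924 ± 436 (log2 fold change -0.29, adjusted p = 0.663). In the same list Foxp1 was at 4407 ± 1769 against 7421 ± 1508 (adjusted p = 0.338), Ets1 at 9746 ± 1346 against 15884 ± 4623 (adjusted p = 0.277) and Ms4a1, which encodes CD20, at 53994 ± 14761 against 90808 ± 35844 (adjusted p = 0.371).

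Of 37 BCR signaling components, 0 passed, 25 were below 0 and the median was -0.29, while 48.2% of all tested genes were above 0. An unadjusted p under 0.05 with the lower value in cMyc+prePB was reached by 9 components, against 5.36% of all tested genes. With the library number as a term 5 passed, with lower values in cMyc+prePB, against 0.672% of all tested genes. The BCR chains Cd79a, at 20920 ± 2718 against 28545 ± 2737 (log2 fold change -0.45, adjusted p = 0.338), and Cd79b, at 20053 ± 7050 against 31503 ± 10885 (log2 fold change -0.66, adjusted p = 0.504), had lower values in cMyc+prePB within all 4 library numbers, as 10.7% of all tested genes had. The same held for the adaptor gene Bank1, at 5007 ± 702 against 9559 ± 2969 (log2 fold change -0.89, adjusted p = 0.101), Cd72, at 11130 ± 5004 against 20771 ± 4129 (adjusted p = 0.265), and Ptprc, which encodes CD45 and B220, at 26879 ± 6422 against 40942 ± 8163 (log2 fold change -0.62, adjusted p = 0.291). Of 21 immediate early genes, 0 passed, 16 were below 0 and the median was -0.37, with Btg1 at 6789 ± 3127 against 12441 ± 4311 (adjusted p = 0.428). Of 17 genes of MHC class II presentation, 0 passed, 13 were below 0 and the median was -0.18.

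Memory B cell and follicular genes had the lowest median of the lists, -0.59, with 17 of 23 tested members below 0 and Cr2 the 1 that passed. Without cMyc+lateCD23int library 1 this median was -0.28 and no longer the lowest. An unadjusted p under 0.05 was reached by 2 members with the higher value in cMyc+prePB and 7 with the lower one. Over all tested genes this was 3.41% and 5.36%. Il9r, which the study also names for memory B cells, had the higher value, 355 ± 136 against 102 ± 62.1 (log2 fold change 1.92, adjusted p = 0.224). Ltb, the lymphotoxin beta gene, was at 6286 ± 1340 against 12720 ± 2894 (log2 fold change -1.02, adjusted p = 0.108), and Pecam1 at 468 ± 248 against 920 ± 252 (log2 fold change -1.09, adjusted p = 0.244). Pdcd1lg2 (PD-L2), found on memory B cells, was at 38.5 ± 38.9 against 143 ± 56.9 (log2 fold change -3.07, adjusted p = 0.343). The positioning receptor genes Ccr6, S1pr1 and Gpr183 were at 254 ± 34.6 against 495 ± 230 (adjusted p = 0.637), 37.4 ± 44.4 against 88.7 ± 32.4 (adjusted p = 0.639) and 1465 ± 356 against 1047 ± 188 (adjusted p = 0.645). Hhex, a factor of memory B cell formation, was at 45.5 ± 54.9 against 186 ± 107 (adjusted p = 0.428) and Klf2 at 21.9 ± 14.4 against 39.1 ± 29.9 (adjusted p = 0.902).

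Of 37 genes of migration, adhesion and positioning, 0 passed, 23 were below 0 and the median was -0.20. Rgs13, a brake on chemokine signals in GC B cells, was at 10714 ± 2315 against 18720 ± 6724 (log2 fold change -0.76, adjusted p = 0.233) and Rgs2 at 1511 ± 1050 against 3798 ± 1789 (log2 fold change -1.43, adjusted p = 0.317). Of 23 genes of T cell help, 0 passed, 12 were above 0 and the median was 0.019. Within them Cd70, the ligand of CD27, stood at 269, 324, 341 and 282 against 28.9, 98.7, 69.6 and 105. The Cd70 groups were far apart (log2 fold change 2.14, SE 0.52, adjusted p = 0.115). Cd40 was at 3778 ± 372 against 3555 ± 530 (adjusted p = 0.943), Btla at 2620 ± 725 against 4204 ± 1246 (adjusted p = 0.428) and Cd83 at 55615 ± 7997 against 74581 ± 14533 (log2 fold change -0.42, adjusted p = 0.596). Of 26 genes of the BCL2 family and cell death, 0 passed and the median was 0.082. Of 23 genes of hypermutation and switching, 0 passed and the median was -0.072. Id2 was at 1137 ± 297 against 710 ± 187 (log2 fold change 0.69, adjusted p = 0.428), Il10 at 71.4 ± 32.8 against 67.2 ± 40.0 (adjusted p = 0.984) and Slc14a1, a urea transporter gene, at 249 ± 66.0 against 420 ± 100 (log2 fold change -0.76, adjusted p = 0.494).

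**Figure D4:**
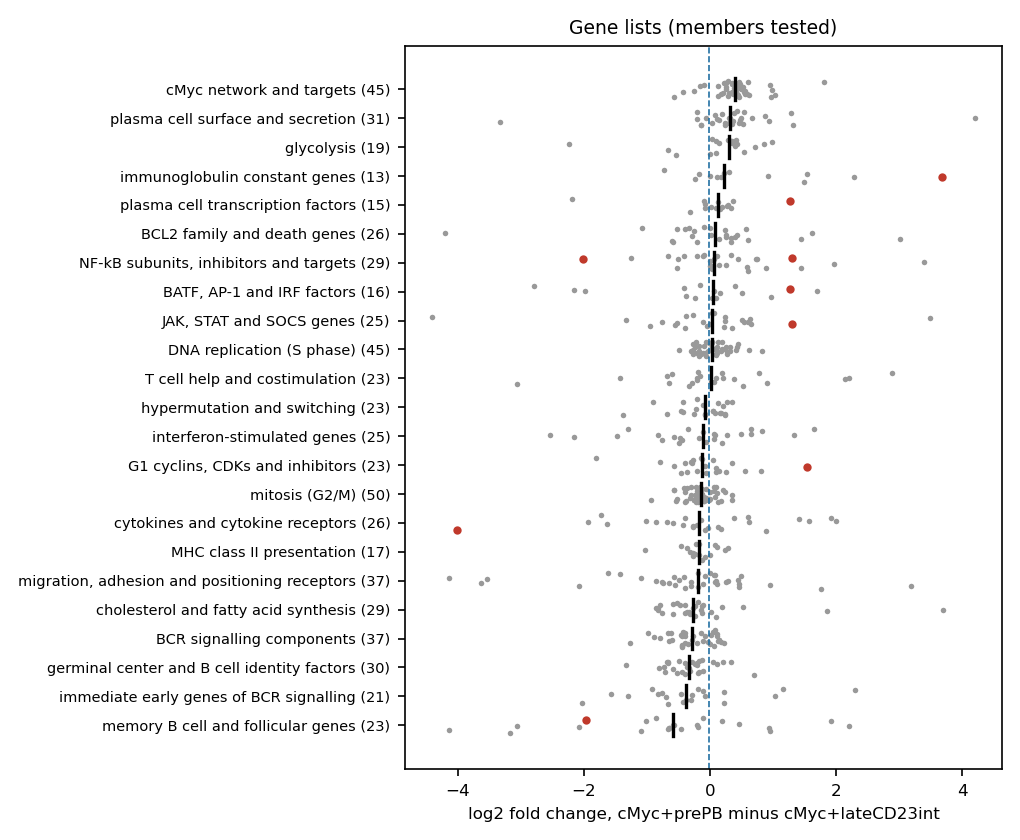
Log2 fold change, cMyc+prePB minus cMyc+lateCD23int (horizontal axis), of the tested members of each gene list (rows, with the number tested). Gray points are members, red points members past the threshold, black bars list medians and the dashed line the median of all tested genes, -0.021. Medians run from -0.59 for memory B cell and follicular genes to 0.39 for the cMyc network and targets.

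The composition of the immunoglobulin constant reads was compared by 3 shares, of which 0 passed after adjustment. IgM made up 44.6, 41.4, 46.2 and 53.6% of heavy chain constant reads in cMyc+prePB and 58.1, 60.9, 55.0 and 60.3% in cMyc+lateCD23int. Each cMyc+prePB library was below each cMyc+lateCD23int library, 46.5 ± 5.16% against 58.5 ± 2.65% (SD, n = 4 each). The difference of -12.1 percentage points had p = 0.0286 in a two-sided exact permutation test, the smallest that 4 against 4 allows, and 0.0857 after adjustment over 3 shares. IgG1 made up 26.8 ± 3.22% against 31.6 ± 4.43% (exact permutation p = 0.143, adjusted 0.143). All constant genes together took 1.34 ± 0.321% of all reads against 1.11 ± 0.0854% (exact permutation p = 0.143, adjusted 0.143). Ighm itself was at 49880 ± 8000 against 49387 ± 3268 normalized reads (log2 fold change 0.0013, adjusted p = 0.999) and Ighg1 at 28786 ± 4941 against 26963 ± 6357 (log2 fold change 0.11, adjusted p = 0.917), and both were looked up after the shares had been seen.

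IgA made up 18.1, 2.91, 9.54 and 6.21% of heavy chain constant reads in cMyc+prePB and 0.849, 0.700, 0.372 and 1.34% in cMyc+lateCD23int. The minor isotypes varied by library. Ighg3 stood at 3363, 5247, 3712 and 3171 against 892, 1746, 1801 and 1041 (log2 fold change 1.54, adjusted p = 0.0573). Its groups did not overlap. Ighg2b was at 9676 ± 4397 against 4806 ± 629 (log2 fold change 0.92, adjusted p = 0.244). Ighg2c stood at 857, 7148, 1814 and 731 against 120, 768, 437 and 353, highest in library 2 of each group (log2 fold change 2.28, adjusted p = 0.342). Ighe stood at 4498, 647, 533 and 764 against 738, 290, 393 and 223, and library 1 was highest in both groups (log2 fold change 1.49, adjusted p = 0.476). Of 13 tested constant genes, with Jchain, 10 were above 0, Igha was the 1 that passed and the median was 0.22. In cMyc+early and cMyc+lateCD23lo IgM made up 64.3 ± 1.98% and 57.4 ± 3.59% and IgA 0.501 ± 0.173% and 0.931 ± 0.283%.

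**Figure D5:**
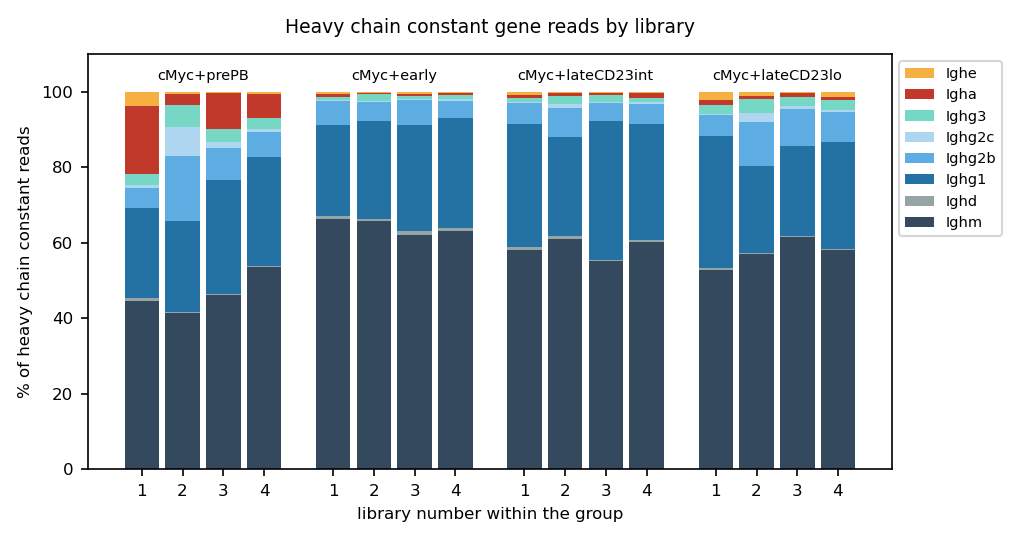
Share of each heavy chain constant gene in the heavy chain constant reads of a library (vertical axis, percent), for libraries 1 to 4 of each subpopulation (horizontal axis). IgA (red) takes 2.91 to 18.1% in cMyc+prePB and at most 1.34% in cMyc+lateCD23int, and IgM (dark) is at most 53.6% in each cMyc+prePB library and at least 55.0% in each cMyc+lateCD23int library.

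Some genes had large fold changes without passing, and are named by a rule that also admitted genes passing only when the library number was a term of the fit. Among those with higher values in cMyc+prePB, Tgtp1, an interferon-inducible GTPase gene, stood at 561, 3453, 1201 and 663 against 117, 287, 198 and 107 (log2 fold change 2.76, adjusted p = 0.286). Emb, a gene for a cell adhesion protein that accompanies a lactate transporter, was at 1226 ± 470 against 358 ± 182 (log2 fold change 1.83, adjusted p = 0.0792). The kinase gene Oxsr1 was at 1199 ± 436 against 328 ± 114 (log2 fold change 1.86, adjusted p = 0.108), Gstt3 at 1230 ± 343 against 496 ± 296 (log2 fold change 1.70, adjusted p = 0.478) and Itm2c at 1677 ± 1051 against 504 ± 279 (log2 fold change 1.71, adjusted p = 0.474). The groups were apart for these genes except Itm2c.

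Among those with lower values, Fndc7 and Gcnt3 had at most 3 reads in each cMyc+prePB library and means of 84.98 ± 46.0 and 59.8 ± 71.6 in cMyc+lateCD23int, at least 30.6-fold and 21.5-fold lower against the floor (adjusted p = 0.0573 and 0.0676). Without cMyc+lateCD23int library 1, which held 166, the Gcnt3 bound was 8.78-fold. Lgr5, the receptor for R-spondins, was at 3.92 ± 5.87 against 76.3 ± 33.4 (adjusted p = 0.108), Hesx1 at 7.34 ± 12.8 against 69.2 ± 28.1 (adjusted p = 0.149) and Crisp3 at 69.1 ± 30.2 against 641 ± 525 (adjusted p = 0.130). Anxa1, the annexin gene, was at 93.1 ± 41.1 against 450 ± 291 (log2 fold change -2.17, adjusted p = 0.0901). Rgs18 stood at 638, 238, 342 and 307 against 2951, 1274, 976 and 1408 (log2 fold change -2.08, adjusted p = 0.0676) and Dcaf10 at 65.5 ± 35.7 against 248 ± 62.8 (log2 fold change -2.05, adjusted p = 0.0676). In all of these the groups did not overlap.

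Libraries held 19812080 to 25795815 reads, with 14707 to 15291 genes detected in cMyc+prePB and 15003 to 15573 in cMyc+lateCD23int. Mitochondrial genes took 1.34 to 1.83% of reads in cMyc+prePB and 1.62 to 2.95% in cMyc+lateCD23int, where library 1 was highest. Without that library 5 genes were higher and 2 lower, Igha, Ido1, Ccnd2, Pkib and Batf, and Cd36 and Endou. Summed levels of T cell markers ran from 4696 to 7211 in cMyc+prePB and from 4817 to 6655 in cMyc+lateCD23int, of NK cell markers from 15.3 to 74.8 and from 8.37 to 82.6, and of monocyte, macrophage and neutrophil markers from 307 to 1017 and from 310 to 974. Most of the T cell sum was Lck, at 4389 to 6839 in cMyc+prePB and 4700 to 6518 in cMyc+lateCD23int. Every other T cell marker was at 102 or less in each of these libraries. Summed levels of 8 B cell markers ran from 679439 to 995754 in cMyc+prePB and from 878916 to 1370460 in cMyc+lateCD23int, and 7 of the 8 had lower values in cMyc+prePB within all 4 library numbers. Every library held both Xist and Y-linked reads.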

How the data were processed

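RNA of sorted cells was made into libraries with a low-input kit and sequenced. The authors deposited 1 table of 51912 genes in 16 libraries, whose values are a normalized signal: the read count of a gene divided by 1 size factor per library. The submitters' processing notes name Trimmomatic 0.36, RSEM 1.2.31, STAR 2.5.2a, DESeq2 1.20.0, R 3.5.1 and build GRCm38, and their settings, and whether counting used strand, are not given in the sources used here. Without strand, reads of overlapping genes cannot be told apart. Dividing by each library's smallest step gave whole reads, within 0.01 of a read, for 100% of values. RSEM estimates need not be whole, so these may be rounded.

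Genes with a mean of at least 10 normalized reads over the 16 libraries (12505) were tested with limma 3.58.1 (R 4.3.3) on log2(value + 1) with a mean-variance trend, in 1 fit over all 16 libraries without a block, and p-values were adjusted by Benjamini-Hochberg over all of them with a threshold of 0.05. Shares of recovered reads were compared by two-sided exact permutation tests. Alternatives were the library number as a block, other pseudocounts, filters and scalings, a fit to the 8 libraries, leaving out each library, and edgeR 4.0.16 and DESeq2 1.42.0 on recovered reads. The code was tested on simulated data. With no gene changed, limma and edgeR called 0 genes and DESeq2 called 11. With 200 genes changed 2-fold, limma recovered 45 beside 7 false calls, and DESeq2 66 beside 30.

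Named genes were the sort markers, the strongest fold changes in each direction (at most 15) among genes that passed with or without the number as a block and kept 1 direction within all 4 numbers, list members passing in either fit, genes the study names, and further list members as values. Of the 121 genes passing in either fit 6 were unnamed gene models and 0 immunoglobulin variable genes. Plscr1, Gstt2, Prkd2 and Endou lie outside that rule and were named, with their values seen, to give all 18. The comparison, the gene lists and the named genes were chosen with earlier results of these data known, and list counts and medians are descriptions. A few genes that this rule named are not reported here. Gene positions are those of GENCODE M21 for GRCm38, which matched 12484 of the tested genes.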

Additional observations from a re-analysis of the deposited data

Results flagged for a closer look

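In 22 of 216 groups of 4 libraries, over the named genes and the immunoglobulin shares, 1 library stood apart from the other 3 on the log2 scale by a Dixon test, where 10.8 would be expected at 1 in 20. Among the genes that passed, Ido1 was at 3990 in cMyc+prePB library 4, Stat5a at 677 in cMyc+lateCD23int library 3 and Lifr at 461 in cMyc+lateCD23int library 1. In cMyc+prePB library 1, Myc was at 2300, below the others, and Cxcr4 at 248, Rgs2 at 3081 and Ighe at 4498, above them. In cMyc+prePB library 2, Prdm1 was at 119 and Hesx1 at 26.5, above the others, and Crisp3 at 24.8, Slc14a1 at 151, Cd83 at 43661 and Gpr183 at 933, below them. Ets1 was at 7746 in cMyc+prePB library 4. In cMyc+lateCD23int library 1, Gstt3 was at 71.7, Gstt4 at 0 and Socs2 at 2.99, all below the others. In cMyc+lateCD23int library 2, Mki67 was at 15103, Il10 at 127 and Gstt1 at 1255, above the others, and Slc14a1 at 271, below them. Gm20441 was at 34.3 in cMyc+lateCD23int library 3 and lower in the others. Slc14a1 was the lowest in library 2 of both groups.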

How the results depend on the processing

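All 18 genes kept their direction under each alternative run, and Igha, Ido1 and Batf passed in every one. The counts of genes higher and lower in cMyc+prePB, 8 and 10, did not move by 1.5 times with a pseudocount of 0.5 or 5 or a mean of at least 50. They were 5 and 4 without a filter on low values, 4 and 5 without the trend, 6 and 2 in a fit to the 8 libraries alone, 10 and 17 after rescaling to the same total, 11 and 18 after quantile normalization, 7 and 4 in edgeR with TMM or with DESeq2 size factors, and 55 and 75 in DESeq2. All 18 were among the calls after either rescaling, 17 in DESeq2, which gave Gramd1c no adjusted p, and 11 in edgeR. Leaving out 1 library gave 5 to 10 higher and 2 to 21 lower genes. It was 5 higher without cMyc+prePB library 3 or 4 or cMyc+lateCD23int library 1 or 3, and for lower genes 21 without cMyc+prePB library 1, 5 without cMyc+prePB library 3, and 2, 6, 6 and 4 without cMyc+lateCD23int libraries 1, 2, 3 and 4. The cause was not tested. In these 8 fits 7 genes always passed, Igha, Ido1, Ccnd2, Pkib, Batf, Cd36 and Endou. Lifr was lost without cMyc+lateCD23int library 1 (adjusted p = 0.0873) and Gramd1c without libraries 1 or 4 of that group (up to 0.0582). Ppfia4 was lost without cMyc+prePB library 3 or cMyc+lateCD23int library 1, 3 or 4 (up to 0.0735). Gstt2 was lost without cMyc+prePB library 2, 3 or 4 or cMyc+lateCD23int library 1 or 3, Hbb-bh1 without cMyc+prePB library 2, 3 or 4 or cMyc+lateCD23int library 1 or 4, and Cr2 without cMyc+prePB library 2 or 3 or cMyc+lateCD23int library 1, 2 or 3 (each up to 0.0873). Plscr1, Il5ra and Nfkbid held only without cMyc+prePB library 1 and Stat5a only without cMyc+prePB library 2 (up to 0.189 in the others), and Prkd2 in 0 (up to 0.132).

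The labels do not say what a shared library number means, so the fit reported had no replicate block. Deviations from the group means of same-numbered libraries correlated at 0.143, 0.00830, 0.0453 and 0.0919 over all tested genes, and 2 of 4 cMyc+prePB libraries correlated best with their own number. For the 3651 genes averaging 1000 or more these were 0.686, 0.0690, 0.471 and 0.527, and 3 of 4. In all 4 subpopulations Xist fell in the order of libraries 1, 3, 4 and 2. Ddx3y was highest in library 2 and next in library 4 in each. The Xist order thus went with the library number in each subpopulation, but no label says whether same-numbered libraries share mice. With the number as a block 37 genes were higher and 84 lower (0.968% of those tested), all 18 included, against 26 and 37 in the 8 libraries alone with the block and 33 and 61 in edgeR with it. The block also called 7 GC and B cell identity factors and 5 BCR signaling components lower and 4 cMyc network genes higher, where 0 passed without it, among them Id3 (adjusted p = 0.000693) and Bank1 (0.00159), and the constant gene Ighg3 (0.00308). Sign changes within numbers left each of the 3 immunoglobulin shares on the same side of the threshold, with differences of -12.1 (IgM) and -4.76 (IgG1) percentage points and 0.235 for all constant genes, and this exact test cannot go below p = 0.125. Leaving out 1 library gave -14.5 to -10.4, -6.57 to -2.99 and 0.0778 to 0.318.

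Of the named genes that did not pass, 8 changed sign in some setting. Leaving out 1 library gave log2 fold changes of -0.31 to 0.20 for Cd69, -0.44 to 0.14 for Fcer2a, -0.15 to 0.31 for Irf4, -0.27 to 0.52 for Ccnd3, -0.13 to 0.47 for Il10, -0.063 to 0.51 for Jchain, -0.065 to 0.12 for Ighm and -0.033 to 0.25 for Ighg1. Ccnd3 was also below 0 in edgeR, at -0.18 with either scaling and -0.058 with the block, and in DESeq2, at -0.18. Of 23 gene lists 13 kept the sign of their median in every setting, among them the cMyc network, plasma cell surface and secretion, GC and B cell identity, BCR signaling and memory lists, with medians of 0.31 to 0.51, 0.26 to 0.38, -0.42 to -0.23, -0.43 to -0.12 and -0.71 to -0.28 over the settings. The other 10 changed sign in at least 1 setting. With 4 libraries per group, low genes with few reads give wide intervals, so that a gene that did not pass is not shown to be alike in both groups.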

Other observations

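Gstt2, higher in cMyc+prePB, lies on chromosome 10 among neighbors that were looked up after its value had been seen. Between 75771230 and 75895941, a span of 125 kb (GRCm38), 8 genes were tested, Ddt, Gm20441, Gstt3, Gstt1, Gstt4, Gstt2, Mif and Derl3. All 8 had a log2 fold change above 0, against 48.2% of all tested genes. An unadjusted p under 0.05 was reached by 6, Ddt, Gstt3, Gstt1, Gstt2, Mif and Derl3, and Gstt2 was the 1 that passed. These same 6 genes had been picked to set the ends of the span. The 3.41% of all tested genes with such a p and the higher value in cMyc+prePB is thus no background for them. The same holds for the 48.2%. Mif, a cytokine gene, was at 10870 ± 917 in cMyc+prePB against 6978 ± 1473 in cMyc+lateCD23int (SD, n = 4 each, log2 fold change 0.66, adjusted p = 0.149), with no overlap. Ddt, its relative, was at 5264 ± 525 against 3370 ± 788 (log2 fold change 0.67, adjusted p = 0.244), also with no overlap. Gstt1 was at 1652 ± 771 against 811 ± 296 (log2 fold change 0.99, adjusted p = 0.378) and Gstt4 at 78.8 ± 14.8 against 21.4 ± 15.7 (log2 fold change 2.66, adjusted p = 0.620). Gm20441 overlaps Ddt and Gstt3, and reads of the theta genes may be shared among them, so the 8 are not independent.

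Within globin genes, Hbb-bt was at 220, 103, 288 and 357 in cMyc+prePB and at 1367, 379, 602 and 785 in cMyc+lateCD23int, without overlap (log2 fold change -1.67, adjusted p = 0.233). The other 4 tested erythroid marker genes, Hba-a1, Hba-a2, Hbb-bs and Car2, overlapped between the groups.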
